A study of Mus musculus with 6 samples.

Results

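The let-7 family is a group of closely related microRNAs (miRNAs) that share a seed, and its mouse members are mmu-let-7a-5p, mmu-let-7b-5p, mmu-let-7c-5p, mmu-let-7d-5p, mmu-let-7e-5p, mmu-let-7f-5p, mmu-let-7g-5p, mmu-let-7i-5p and mmu-miR-98-5p, named below without the mouse prefix. These 9 members were taken by name from the array's list of mouse miRNAs, where all 9 were found among 1247, and all 9 were among the 193 miRNAs bright enough to be tested. The signal of each was followed in whole kidney of male C57BL/6 mice, a standard inbred strain, at 2 months (young) and at 20 months (aged) of age, with 3 RNA preparations per age. Each was measured on a separate 1-colour array, which carries short DNA probes that capture labelled small RNA. The labels name no treatment, genotype or further difference between the groups. Whether each preparation is a separate animal is not stated, and p-values therefore reflect only how far these preparations differed, some of which may be technical. Whole kidney mixes all cell types of the organ, and in such bulk RNA fewer cells of a type and less RNA per cell cannot be told apart.

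A miRNA recognises its target transcripts mainly through the seed, the short stretch near its 5′ end, so miRNAs with the same seed have overlapping targets. let-7 was found as a regulator of developmental timing in the nematode worm. In mammals its members repress transcripts such as Hmga2, Ras family members and Lin28, accumulate as cells differentiate, and are abundant in most adult tissues. The LIN28 proteins in turn bind let-7 precursors and block their maturation.

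The mature sequences are shown because the seed is common to the 9 members while their 3′ parts set them apart. They were read from RefSeq (GRCm38.p6), in which 9 of 9 members matched by name, and are written 5′ to 3′ with the seed (bases 2 to 8) in capitals.
let-7a-5p: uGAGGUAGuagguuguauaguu
let-7b-5p: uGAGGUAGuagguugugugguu
let-7c-5p: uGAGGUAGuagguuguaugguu
let-7d-5p: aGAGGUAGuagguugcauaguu
let-7e-5p: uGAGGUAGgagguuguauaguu
let-7f-5p: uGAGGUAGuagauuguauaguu
let-7g-5p: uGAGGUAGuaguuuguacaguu
let-7i-5p: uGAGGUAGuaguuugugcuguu
miR-98-5p: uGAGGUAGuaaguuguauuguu
Positions are counted from 1 at the 5′ end, and let-7a-5p is the reference. let-7c-5p differs from it by A19G alone, let-7e-5p by U9G and let-7f-5p by G12A. let-7b-5p carries A19G as well as A17G. let-7d-5p carries U1A and U16C, and miR-98-5p carries G11A and A19U. let-7g-5p carries G12U and U18C, and let-7i-5p carries the same changes with A17G and A19U added. Over the 36 pairs of members the number of differing bases ran from 1 to 6, and 4 pairs differed by 1 base. Such close RNAs can bind each other's probes, and how much of a member's signal came from another member was not tested.

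The hairpins that give rise to the members lie in small groups in RefSeq (GRCm38.p6). Mirlet7a-1, Mirlet7f-1 and Mirlet7d lie within 10 kb of each other. Mirlet7c-2 and Mirlet7b lie next to each other within the span of the gene Lncppara, and Mirlet7f-2 and Mir98 lie within the span of Huwe1, a ubiquitin ligase gene. Mirlet7g lies within the span of Wdr82, and Mirlet7e within that of Spaca6 with Mir125a nearby. Mirlet7c-1 has Mir99a as its neighbour, and Mirlet7i has no other listed hairpin within 10 kb. let-7c-5p and let-7f-5p are each listed with more than 1 hairpin, and let-7a-5p is known to come from Mirlet7a-2 as well, so a value for these mature forms covers several genes.

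The arrays were all on 1 slide and read in 1 scan. They lay in 2 slide rows, with the 3 young arrays and aged array 1 in row 1 and aged arrays 2 and 3 in row 2. Between 177 and 209 miRNAs were well above background per array, and the number of arrays limits the precision. Aged array 1 had correlations of 0.991 to 0.993 with the young arrays and of 0.972 to 0.983 with the other aged arrays over the tested miRNAs. It also carried negative controls with an SD of 133 intensity units, against 6.85 to 9.66 on the other arrays. Of 9 miRNAs listed as kidney-enriched 8 were tested and 0 passed the limma test, against 7.77% of all tested miRNAs. Among the 8, miR-194-5p alone had ages that did not overlap, as had 30.6% of all tested miRNAs. It was higher in aged kidney by 0.28 ± 0.09 (log2 ± SE, limma adjusted p = 0.104). The kidney marker miR-215-5p and the liver miRNA miR-122-5p lay at the floor on every array. The summed level (log2) of the 3 erythroid markers on the array ran from 3.06 to 3.22 in young and from 2.66 to 2.84 in aged kidney. That of the 5 leukocyte markers ran from -0.76 to -0.55 in young and from -0.41 to -0.08 in aged kidney. Of these lists 2 erythroid and 4 leukocyte markers were tested, and 0 passed the limma test. Nearest to the cut were miR-451a at -0.34 ± 0.08 (limma adjusted p = 0.0528) and miR-223-3p at 0.55 ± 0.13 (limma adjusted p = 0.051). Ages did not overlap for miR-451a and miR-144-3p, both lower with age. They also did not overlap for miR-223-3p, miR-142-3p and miR-155-5p, all higher with age, while those of miR-142-5p overlapped. The 3 muscle markers summed to -3.59 to -3.37 in young and -3.58 to -3.54 in aged kidney, with miR-133a-3p and miR-206-3p at the floor on every array. The 2 neuronal markers, miR-124-3p and miR-9-5p, both lay at the floor on all young arrays, so their sum there, -4.22, is no measured level. On aged arrays they summed to -3.43 to -3.31, where miR-124-3p passed the limma test as higher and miR-9-5p lay at the floor. The 2 endothelial markers summed to 2.64 to 2.78 in young and to 2.73 to 2.86 in aged kidney. Of these miR-126-5p lay at the floor on every array, so the sums are nearly those of miR-126-3p alone. The part of these markers in the values of the let-7 members was not tested.

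let-7 was among the strongest signals of the kidney arrays at both ages. A level is given here as scaled signal, the log2 of a miRNA's background-corrected intensity summed over its probes and divided by a reference intensity of the same array (its 75th percentile over 315 probes that were detected on every array). Among all 1247 miRNAs let-7f-5p ranked 3 to 5 by signal, let-7a-5p 4 or 5, let-7c-5p 6 or 7, let-7b-5p 8 to 10 and let-7g-5p 10 to 12. let-7d-5p ranked 19 to 22, let-7i-5p 31 to 37, let-7e-5p 46 to 52 and miR-98-5p 85 to 94. How strongly each probe binds its target is not known here, so this is an order of signal and not of molecules.

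The order within the family was nearly fixed over the 6 arrays. let-7a-5p and let-7f-5p exchanged the first place, each being brighter on 3 arrays, with a mean gap of 0.04 ± 0.07 (log2, SD over 6 arrays). Every later place was held by the same member on all 6 arrays, in the order let-7c-5p, let-7b-5p, let-7g-5p, let-7d-5p, let-7i-5p, let-7e-5p and miR-98-5p. The narrowest of these steps was that from let-7b-5p to let-7g-5p, with a gap of 0.16 ± 0.14 and a range of 0.06 to 0.44. The widest was the last, from let-7e-5p to miR-98-5p, with a gap of 2.07 ± 0.10.

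let-7a-5p, the form identical between worm and mouse, had scaled signals (log2) of 3.87, 3.73 and 3.90 in young kidney and of 3.79, 3.92 and 4.04 in aged kidney. Before scaling these were 20727, 15914 and 17771 intensity units in young and 16250, 31099 and 21093 in aged kidney. Aged array 2 was the brightest as a whole, with a reference intensity of 2054 against 1171 to 1415 on the other arrays. let-7f-5p, made from hairpins next to those of let-7a-5p and of miR-98-5p, stood at 3.79, 3.75 and 3.91 in young and at 3.75, 3.95 and 3.90 in aged kidney. For both the ages overlapped, and aged array 1 lay at the level of the young arrays.

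let-7c-5p had scaled signals of 3.47, 3.33 and 3.49 in young and of 3.42, 3.56 and 3.76 in aged kidney. let-7b-5p, whose hairpin adjoins that of let-7c-2, had 3.18, 3.06 and 3.22 in young and 3.14, 3.28 and 3.61 in aged kidney. In both members aged array 3 was the highest of the 6 and aged array 1 lay inside the young range. let-7g-5p stood at 3.05, 2.98 and 3.16 in young and at 2.96, 3.18 and 3.17 in aged kidney, with the ages interleaved.

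let-7d-5p, the member whose first base is A, had 2.24, 2.18 and 2.33 in young and 2.10, 2.30 and 2.46 in aged kidney. let-7e-5p had 0.72, 0.58 and 0.84 in young and 0.49, 0.68 and 0.82 in aged kidney. In both, the aged values spread wider than the young ones and enclosed most of them. let-7i-5p, which differs most from let-7a-5p, had 1.61, 1.49 and 1.65 in young and 1.29, 1.52 and 1.51 in aged kidney, so that 1 young array lay below the aged maximum. miR-98-5p, the dimmest member, had -1.33, -1.40 and -1.28 in young and -1.63, -1.24 and -1.40 in aged kidney, with the highest and the lowest value both among the aged arrays.

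**Figure D1:**
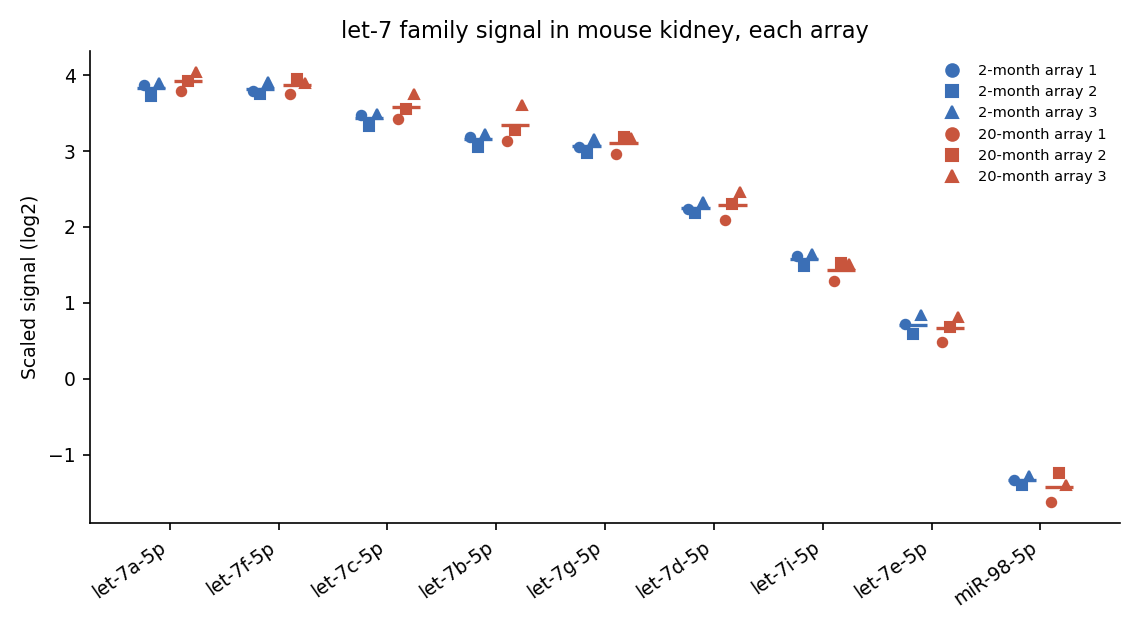
Scaled signal (log2) of the 9 let-7 family members on each of the 6 kidney arrays, with a marker per array and a bar at each group's mean (n = 3 per age). The members keep their order from let-7a-5p and let-7f-5p down to miR-98-5p, and the 2-month and 20-month points overlap for each member.

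No member was called changed with age. Of the 9 members 0 passed an adjusted p of 0.05 in the limma fit over all 193 tested miRNAs, where 7.77% passed (4.15% higher and 3.63% lower), and 0 had an unadjusted p under 0.05, where 25.4% did. Groups did not overlap for 0 of the 9, against 30.6% of all tested miRNAs (10.4% higher and 20.2% lower with age). The differences (aged minus young) were positive in 6 members and negative in 3, with a median of 0.04. Over all tested miRNAs 33.7% were positive and the median was -0.08. Adjusted p-values of the members in limma ran from 0.362 to 0.842.

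The differences with their limma intervals are given here for the main scaling. let-7b-5p had the largest positive difference, 0.19 ± 0.13 (log2 ± SE, n = 3 per group), a 1.14-fold ratio with a 95% confidence interval from 0.91-fold to 1.42-fold. let-7c-5p followed at 0.15 ± 0.11 (1.11-fold, interval 0.924-fold to 1.32-fold). let-7a-5p stood at 0.09 ± 0.09 (1.06-fold, interval 0.905-fold to 1.24-fold). let-7f-5p, let-7g-5p and let-7d-5p lay at 0.05 ± 0.09, 0.04 ± 0.09 and 0.04 ± 0.11. On the negative side let-7e-5p stood at -0.05 ± 0.11 and miR-98-5p at -0.09 ± 0.11. let-7i-5p had the most negative difference, -0.14 ± 0.10, a 0.904-fold ratio with an interval from 0.77-fold to 1.06-fold. Across the 9 members the intervals ran from 0.77-fold to 1.42-fold under this scaling alone. When every probe entered the percentile, all 9 differences were positive, and that of let-7b-5p was the largest at 0.60 ± 0.30. In that setting the median over all 193 tested miRNAs was positive too, at 0.33, against 0.46 for the members. Of the 3105 probes that entered it, 315 were detected on every array.

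Within slide row 1, 6 members had the opposite sign. There aged array 1 alone stands against the 3 young arrays, which is also what the fit with slide row as a block compares, and all 9 differences were negative. They ran from -0.01 for let-7c-5p and -0.02 for let-7b-5p to -0.29 for miR-98-5p and -0.30 for let-7i-5p, and 0 passed an adjusted p of 0.05. Slide row and that single array, which also had the widest negative controls, cannot be told apart here, and row 2 holds aged arrays alone. Single arrays moved several of the differences by more than 1.5 times. Without aged array 3 let-7b-5p stood at 0.05, let-7c-5p at 0.06 and let-7a-5p at 0.03, and without aged array 1 these were 0.29, 0.22 and 0.15. let-7i-5p stood at -0.07 without aged array 1. The smaller differences of the other 5 members moved as well, from 0.01 to 0.11 for let-7f-5p with 1 array left out, for example.

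**Figure D2:**
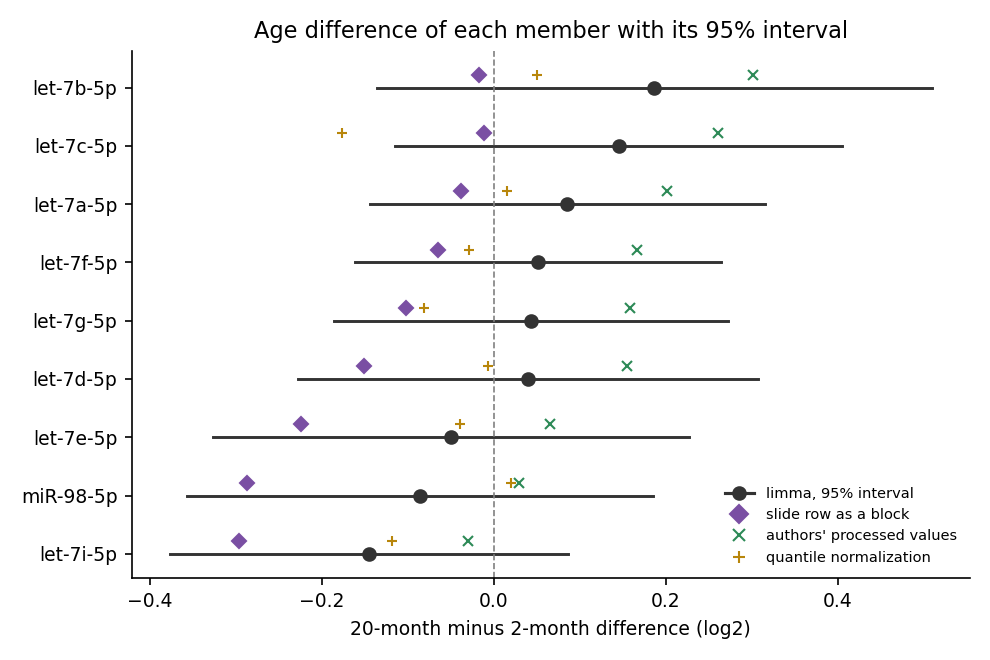
Difference between 20-month and 2-month kidney (log2) of each member, with the limma estimate as a filled circle and its 95% confidence interval as a line (n = 3 per age). Coloured marks give the same difference with slide row as a block, in the authors' processed values and under quantile normalization; each interval includes 0, and of the 9 members let-7i-5p alone keeps its sign in all the settings drawn.

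Members mostly moved up and down together from array to array, in part with the tested miRNAs as a whole. Against the young mean, the median of the 9 members was 0.01, -0.09 and 0.07 on young arrays 1, 2 and 3. On aged arrays 1, 2 and 3 it was -0.10, 0.09 and 0.11. The median of all tested miRNAs was -0.01, -0.06 and 0.06 on the young arrays. On the aged arrays that median was -0.06, -0.09 and 0.00. On aged array 1 and on young array 2 all 9 members lay below the young mean, and on young array 3 all 9 lay above it. The median of all tested miRNAs lay on the same side as the members on each of these arrays. On aged arrays 2 and 3 7 of 9 members lay above their young mean, with let-7i-5p at -0.06 and -0.08 among the exceptions. The median correlation between 2 members over the 6 arrays was 0.73 (36 pairs, from 0.14 to 0.99), and 0.18 between any 2 tested miRNAs. These correlations describe arrays that share their scaling, and carry no test. let-7d-5p followed the mean of the other 8 members most closely (r = 0.96) and let-7i-5p least (r = 0.55), with miR-98-5p next at 0.58. Such closeness was not particular to members. The 5 highest of 184 tested miRNAs outside the family had r = 0.94 to 0.96 with the family mean. The spread among aged arrays exceeded that among young ones, with a median SD of 0.17 against 0.08 over the members and of 0.13 against 0.09 over all tested miRNAs.

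The share of the signal held by the family as a whole overlapped between the ages. The 9 members made up 13.1%, 11.8% and 13.2% of the summed signal of the tested miRNAs on the young arrays and 12.1%, 15.1% and 13.5% on the aged arrays. The aged values lay both below and above the young ones. The means were 12.7% ± 0.81 in young and 13.6% ± 1.5 in aged kidney (SD, n = 3 per group), and an exact two-sided permutation test gave p = 0.4, where 0.1 is the smallest p that 3 against 3 arrays allow. A share within an array needs no scaling between arrays. The difference of 0.902 percentage points was 0.129 without aged array 2, 1.64 without aged array 1 and 0.437 without young array 2. Without the 10 brightest other miRNAs in the sum, the share was 31.1% ± 0.76 in young and 32.6% ± 2.3 in aged kidney.

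Within the family, let-7a-5p and let-7f-5p gave the most signal, in nearly equal parts. let-7a-5p took 21.5% ± 0.36 of it in young and 21.6% ± 0.35 in aged kidney, and let-7f-5p 21.3% ± 0.48 and 20.9% ± 1.2. let-7c-5p took 16.3% ± 0.26 and 17.1% ± 0.53, let-7g-5p 12.6% ± 0.19 and 12.3% ± 0.52, and let-7d-5p 7.18% ± 0.12 and 6.98% ± 0.21. miR-98-5p took 0.598% ± 0.0093 and 0.534% ± 0.053. For these 6 members the ages overlapped.

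For the other 3 members the shares of young and aged arrays did not overlap. let-7i-5p held 4.58%, 4.51% and 4.49% of the family's signal on the young arrays and 3.87%, 4.04% and 3.71% on the aged arrays. let-7e-5p held 2.46%, 2.41% and 2.56% in young and 2.22%, 2.26% and 2.30% in aged kidney. let-7b-5p held 13.6%, 13.4% and 13.3% in young and 13.9%, 13.7% and 15.9% in aged kidney, where aged array 3 set most of the gap: without it the difference in share fell from 1.05 to 0.347 percentage points. Each of the 3 reached p = 0.1 in the exact two-sided permutation test, the smallest that this design allows, and 0.3 after Benjamini-Hochberg adjustment over the 9 members. Measured as signal over the let-7 sum, 43% of all tested miRNAs had ages that did not overlap (9.33% higher and 33.7% lower). The 3 of 9 members, 1 higher and 2 lower, are a smaller share than that. The members are part of that sum, so their shares cannot all move the same way, while the other miRNAs lie outside it. With normexp background correction these 3 members were separated as well, and miR-98-5p in addition.

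**Figure D3:**
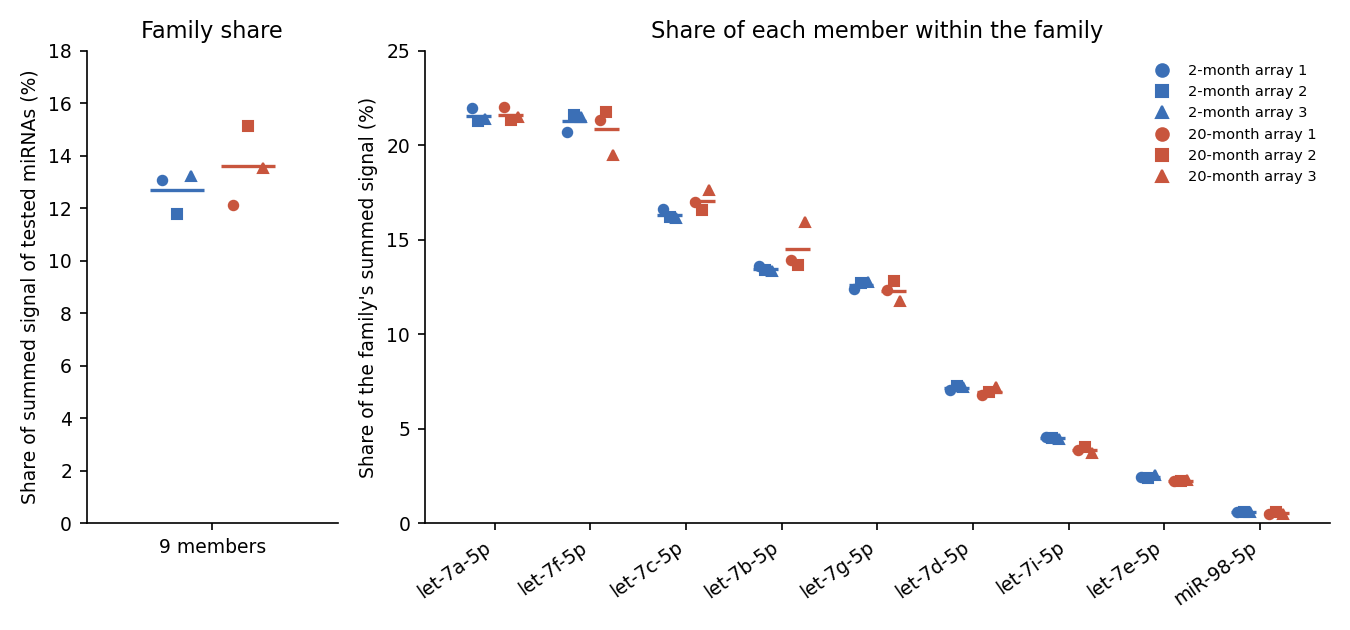
Left, share of the summed signal of the 193 tested miRNAs held by the 9 let-7 members on each array; right, share of the family's own signal held by each member, in percent, with a marker per array and a bar at each group's mean (n = 3 per age). The family share overlaps between ages, and let-7i-5p lies lower on each 20-month array (3.71% to 4.04%) than on each 2-month array (4.49% to 4.58%).

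Set against the family mean of the same array, let-7i-5p had the most negative difference between ages of the 9 members. Its log2 signal less the family mean lay at 0.02, -0.01 and -0.01 from its own young average on the young arrays, and at -0.16, -0.13 and -0.23 on the aged arrays. The groups did not overlap, and the difference was -0.18 ± 0.05 (SE, n = 3 per group). In the limma fit that scaled all 193 miRNAs to this mean, its adjusted p was 0.0732, and 0 of the 9 members passed, where 13.5% of all tested miRNAs did (5.7% higher and 7.77% lower). let-7b-5p at 0.16 ± 0.08, let-7c-5p at 0.11 ± 0.05 and let-7e-5p at -0.08 ± 0.05 also had ages that did not overlap, which with let-7i-5p makes 4 of 9 members against 36.8% of all tested miRNAs. let-7b-5p and let-7c-5p were the highest, and the remaining members ran from -0.12 for miR-98-5p to 0.06 for let-7a-5p. This scaling was added after the data were seen, and a member's own signal is part of the mean it is compared with.

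**Figure D4:**
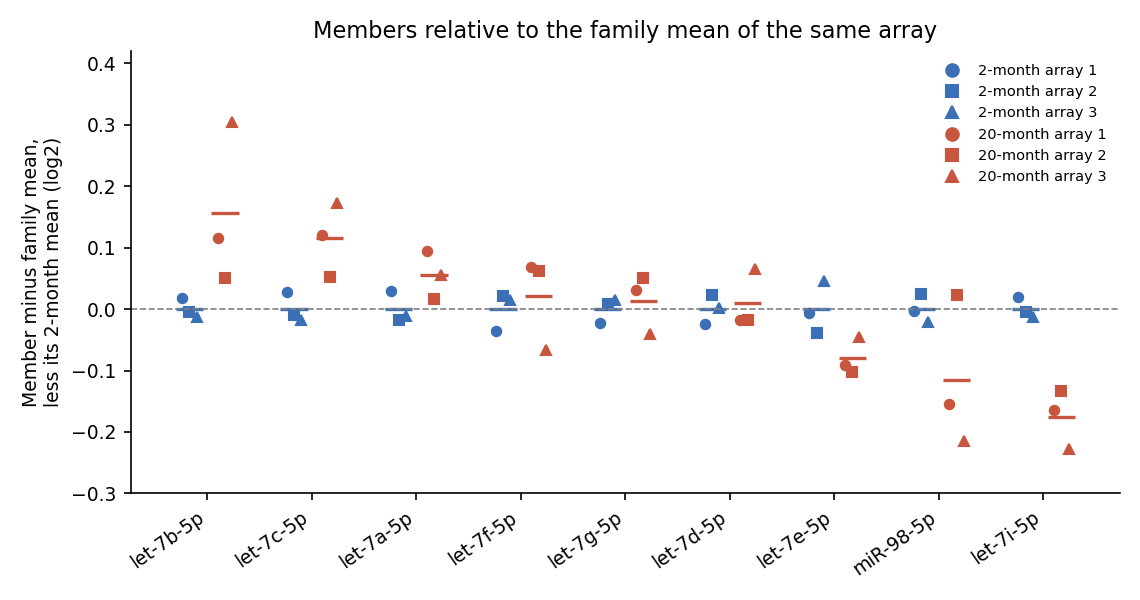
Each member's log2 signal minus the mean of the 9 members on the same array, less its own 2-month mean, with a marker per array and a bar at each group's mean (n = 3 per age). let-7b-5p and let-7c-5p lie above 0 and let-7i-5p below 0 on all 3 20-month arrays, while 20-month array 3 sets the highest let-7b-5p point.

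Every member was read by 2 probes of up to 20 spots each, and the probes of a member gave the same direction in all 9 members. The brighter probe of let-7b-5p had an age difference of 0.19 and the dimmer 0.17, and for let-7i-5p these were -0.13 and -0.16. For let-7e-5p the differences were -0.03 and -0.08, which was the widest disagreement. The gap between the probes of a member was a stable property of the member. It was 1.72 ± 0.06 in young and 1.71 ± 0.10 in aged kidney for let-7f-5p (log2, SD, n = 3 per group), and 0.43 ± 0.02 and 0.45 ± 0.03 for miR-98-5p. Between ages the gap moved by -0.01 to 0.04 over the 9 members.

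The opposite (3p) arms of the let-7 hairpins, which are mostly discarded when the mature strand is loaded, gave no detected signal. Of the 12 arms listed, 11 were on the array, and 11 of these 11 were not well above background on any array. They could not be compared between ages, since each lay at the floor of -5.22 on all 6 arrays. By the seed, RefSeq matched 1017 of the 1247 array miRNAs, and 11 of these carried the let-7 seed: the 9 members, let-7k and miR-1961. The additional pair is shown because it carries the family's seed in a shorter mature form.
let-7k: uGAGGUAGgagguugugug
miR-1961: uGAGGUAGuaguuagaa
Neither was well above background on any array. let-7j, which differs from let-7a-5p in the seed by G8U, was likewise not well above background on any array.

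miR-202-3p, a miRNA known from the gonads that carries the same seed change G8U, was above background. It stood at -2.70, -2.47 and -2.16 in young and at -2.21, -3.02 and -2.60 in aged kidney, with the ages interleaved and a difference of -0.17 ± 0.23 (limma adjusted p = 0.664).

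The miR-99/100 and miR-125 families share primary transcripts with let-7 hairpins at several loci. Of their 5 tested 5p forms 0 passed the limma test, where 7.77% of all tested miRNAs did. The difference was -0.11 ± 0.08 for miR-99a-5p, -0.17 ± 0.11 for miR-99b-5p, -0.16 ± 0.08 for miR-100-5p, -0.11 ± 0.10 for miR-125a-5p and -0.01 ± 0.09 for miR-125b-5p. Limma adjusted p-values ran from 0.239 for miR-100-5p to 0.957 for miR-125b-5p. miR-100-5p, at -2.06, -2.20 and -2.02 in young and at -2.25, -2.28 and -2.23 in aged kidney, was the 1 of the 5 whose ages did not overlap. Over all tested miRNAs 30.6% had ages that did not overlap, 20.2% being lower with age. All 5 differences were negative here, while all 5 were positive without scaling or when every probe entered the percentile, and 3 of the 5 were positive in the authors' processed values. Their 6 opposite arms were not well above background on any array.

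The 5 tested miRNAs outside the family whose profile over the 6 arrays was most like the mean of the members were miR-24-3p (r = 0.96), miR-16-5p (0.96), miR-93-5p (0.96), miR-20a-5p (0.95) and miR-103-3p (0.94). They were the highest of 184 correlations, which describe 6 arrays that share their scaling and carry no test. All 5 were among the most like in the authors' processed values and with the mean over probes as well, and 4 with outlier spots kept. Scaling to the median of detected probes and normexp kept 3 each. Unscaled values and a percentile over every probe kept 2 each, and quantile normalization kept 0.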

How the data were processed

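Total RNA (100 ng) of each kidney preparation was ligated to a Cy3-tagged nucleotide and hybridised to an Agilent miRNA array, per the labels' protocols. Spot values deposited by the authors are fluorescence intensity, background-corrected by Feature Extraction 11.5.1.1 per the file headers and not scaled between arrays. The authors' processed table is on a log2 scale and matches the log2 of the total signal that the software gives a miRNA, shifted by 1 value for the whole array, and no source used here gives the origin of that shift.

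Here spots were averaged per probe without outlier spots, divided by the array's 75th percentile of the 315 probes that were detected throughout, summed per miRNA, floored at -5.22 and put on a log2 scale. A probe was taken as detected where over 50% of its spots carried that flag. Saturation was not seen on any array. The 193 miRNAs detected on all arrays of an age entered a limma fit (version 3.58.1, R 4.3.3); p-values were adjusted by Benjamini-Hochberg and called below 0.05. Shares were compared with exact permutation tests. The limma fit was tested on simulated data in which miRNAs varied independently, without effects shared by the miRNAs of an array.

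The members, the related lists (opposite arms, cluster partners and their opposite arms, miR-202-3p, seed matches), the cell markers and the rule for the 5 most similar miRNAs were chosen with earlier results of these data known; let-7j was added later. Arrays of an age were counted as separate samples, as labelled; 58.7% to 80.6% of the detected probes differed beyond spot noise in each pair, so no array was a copy of another, which does not show separate animals.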

Additional observations from a re-analysis of the deposited data

How the results depend on the processing

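Under all 19 alternatives 0 of the 9 members passed an adjusted p of 0.05 in limma, with 0.0732 the lowest, for let-7i-5p scaled to the family mean. That setting, normexp and the comparison within slide row 1 were added after the data were seen; normexp used the spot median signal, and the planned version on the spot mean was not run. Signs of the small differences depended on the scaling. When the percentile was taken over every probe, differences turned to 0.36 for let-7e-5p, 0.27 for let-7i-5p, 0.33 for miR-98-5p, 0.30 for miR-99a-5p, 0.24 for miR-99b-5p and miR-202-3p, 0.25 for miR-100-5p, 0.31 for miR-125a-5p and 0.40 for miR-125b-5p. Unscaled values gave 0.15 for let-7e-5p, 0.057 for let-7i-5p, 0.12 for miR-98-5p, 0.088 for miR-99a-5p, 0.030 for miR-99b-5p and miR-202-3p, 0.039 for miR-100-5p, 0.10 for miR-125a-5p and 0.19 for miR-125b-5p. Scaling to the median of detected probes put let-7e-5p at 0.090, miR-98-5p at 0.054, miR-99a-5p at 0.025, miR-125a-5p at 0.034 and miR-125b-5p at 0.13. In the authors' values these were 0.066, 0.029, 0.0011, 0.0092 and 0.11. Quantile normalization gave -0.18 for let-7c-5p, -0.0064 for let-7d-5p, -0.029 for let-7f-5p, -0.081 for let-7g-5p, 0.020 for miR-98-5p, 0.016 for miR-202-3p and 0.042 for miR-125b-5p. With slide row as a block, and equally within row 1, values were -0.038 for let-7a-5p, -0.017 for let-7b-5p, -0.012 for let-7c-5p, -0.15 for let-7d-5p, -0.065 for let-7f-5p, -0.10 for let-7g-5p, 0.029 for miR-125b-5p and 0.23 for miR-202-3p. The members' median was 0.46 with every probe in the percentile, 0.25 unscaled, 0.18 scaled to the median and -0.10 with slide row (block or within row 1). The median of all tested miRNAs was 0.33, 0.12, 0.06 and -0.06 in these settings. The members' median less that of all tested miRNAs was 0.13 in the main processing, which a scaling by 1 value per array cannot alter, -0.03 under quantile normalization and -0.04 with slide row.

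With 1 array left out, let-7d-5p ranged from -0.048 (without aged array 3) to 0.13, let-7e-5p from -0.13 to 0.038 (positive without young array 3 and without aged array 1), miR-98-5p from -0.18 to 0.015 (positive without aged array 1), miR-125b-5p from -0.058 to 0.061 (positive without young array 3 and without aged array 2) and miR-202-3p from -0.37 to 0.032 (positive without aged array 2). The other members kept their sign. The count of all called miRNAs, 15, was 2 unscaled, 4 with normexp, 6 without a detection filter, 5 with slide row as a block and 26 scaled to the family mean, and 5 to 39 with 1 array left out, the 39 without aged array 1. The split of higher and lower calls, 8 and 7, was 18 and 3 scaled to the median, 13 and 1 under quantile normalization and 10 and 0 in the authors' values. Same-numbered young and aged arrays deviated together at correlations of 0.12, -0.58 and 0.31, and 1 of 6 arrays was closest to its own number, so the numbers were not taken as pairs; a replicate block gave 3 calls and 0 members.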
